A study of Mus musculus with 2 samples.

Results

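Among the T cells of MB49 tumours, a small set of Cd8-positive cells carried transcripts of several secreted or surface signals that activated T cells make: Tnfsf11, Tnfsf8, Nrn1, Ccl1 and Xcl1. The cells were chosen by a rule on raw counts of unique molecular identifiers (UMIs, each standing for 1 captured transcript). A base population held at least 2 UMIs of Cd8a and Cd8b1 together, 0 of Foxp3, Cd4, Lyz2, Mki67 and Havcr2, fewer than 2 of Ifng and at most 25000 UMIs in all. Cells of this base with at least 1 UMI of at least 2 of the 5 signal genes were selected, 73 female and 71 male. They were 144 of 1475 base cells and of 6987 cells kept in all. The other 643 female and 688 male base cells served as the comparison.

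MB49 is a transplantable mouse bladder tumour line. Both libraries came from tumours on day 14 after transplant into C57BL/6J mice aged 12 to 14 weeks, 1 library from males and 1 from females, with no other treatment or allele named in the labels. The labels describe digestion with collagenase, a sort of viable CD4+ T cells, and a 5′ droplet kit loaded with 10000 to 20000 cells per sample. They do not say how many mice were pooled. The selected cells go against the stated sort: Cd8a stood at 759 and 701 CPM (a gene's UMIs per 1000000 summed over the group) in the female and male library and Cd8b1 at 790 and 772 CPM, while 0 UMIs of Cd4 was a condition of the rule. Each sex is a single library, so values have no replicates, and the spread between mice is unknown.

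Tnfsf11 encodes RANKL, a TNF family ligand that activated T cells show to RANK-bearing dendritic cells and bone-resorbing cells. Tnfsf8 encodes the ligand of CD30. Xcl1 is a chemokine that draws XCR1-bearing cross-presenting dendritic cells, Ccl1 is the chemokine ligand of CCR8, and Nrn1 encodes neuritin, a membrane-anchored protein first described in neurons. In tumours, CD8 T cells that keep Tcf7 and Ccr7 are regarded as progenitors of the exhausted cells, which carry Havcr2, granzymes and effector chemokines, and Xcl1 is among the genes associated with such progenitors.

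The female library held 3658 barcodes and the male 3708, of which 3468 and 3519 were kept, with median UMI numbers of 9517 and 7880. The libraries shared 16 barcodes, 0 of them in selected cells. Female selected cells held 205 Xist UMIs and 0 of 4 Y-linked genes, and male ones 0 and between 8 and 94, so both matched their labels. Intervals below are exact 95% intervals and cover counting error only. Ratios are log2 of CPM in selected over other base cells, a gene at 0 being set to 3 counts.

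The selected cells made up 10.2% of female base cells (8.08% to 12.6%) and 9.35% of male base cells (7.38% to 11.7%), intervals that overlap. Depth moved with selection. The selected cells had medians of 12116 and 11041 UMIs, against 6425 and 6177.5 in the other base cells. With base cells cut into 4 equal groups from the shallowest to the deepest, the selected share was 2.23%, 2.79%, 7.26% and 28.5% for female cells and 0.526%, 2.12%, 6.84% and 27.9% for male cells. Thinned to 3000 UMIs each, 28 of 657 female base cells still met the rule (4.26%, 2.85% to 6.10%), as did 33 of 675 male ones (4.89%, 3.39% to 6.80%). For this reason the lists and most of the genes below are also given at matched depth, with the other base cells weighted to the UMI deciles of the selected cells, which brought their median to 11630 and 11030 UMIs. The deepest decile held 32 female and 32 male selected cells but only 40 and 44 other base cells. Much of the weight thus rests on those few cells, and matched-depth ratios are given without intervals.

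Tnfsf11 and Xcl1 were the signal genes found in most selected cells. Tnfsf11 had a UMI in 58 of 73 female and 46 of 71 male selected cells, and Xcl1 in 52 of each. Nrn1 was seen in 32 and 38, Tnfsf8 in 26 and 34 and Ccl1 in 11 and 12. The pair Tnfsf11 and Xcl1 alone was the most frequent combination in the female library (17 cells), while Tnfsf8 with Xcl1 led in the male (16 cells), followed by Tnfsf11, Nrn1 and Xcl1 together (11 cells). Exactly 2 of the 5 genes were carried by 50 female and 40 male cells, 3 by 14 and 24, 4 by 8 and 5, and all 5 by 1 and 2.

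These 5 genes chose the cells, so their levels are a description only. Tnfsf11 stood at 260 CPM in female and 304 CPM in male selected cells, against 11.6 and 9.08 CPM in the other base cells. Xcl1 stood at 263 and 508 CPM against 28.1 and 40.5. The male Xcl1 level leaned on a single cell with 48.2% of the UMIs, and without the cells richest in Penk, Xcl1 and Ccl1 it was 264 CPM beside 224 CPM in the female library. Nrn1 stood at 202 and 198 CPM against 17.2 and 15.7. Tnfsf8 stood at 65.2 and 108 CPM against 10.2 and 18.6, with 33.3% of the male UMIs in 1 cell. Ccl1 stood at 30.4 and 66.5 CPM against 1.11 and 1.33, with 66.7% of the male UMIs in 1 cell. In thinned tumour-like cells, which should lack these genes, Tnfsf11 had a UMI in 0 of 28 female and 0 of 24 male cells, which allows shares of up to 12.3% and 14.2% (exact upper bounds).

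By GENCODE M21 on GRCm38, Tnfsf11 (ENSMUSG00000022015) lies on chromosome 14 at 78277445 to 78308043, Xcl1 (ENSMUSG00000026573) on chromosome 1 at 164931644 to 164935527 and Ccl1 (ENSMUSG00000020702) on chromosome 11 at 82176657 to 82305690, all on the minus strand. The Ccl1 span is set by 1 long noncoding transcript, while both protein-coding ones end at 82179812. Tnfsf8 (ENSMUSG00000028362) lies on chromosome 4 at 63831308 to 63861347 and Nrn1 (ENSMUSG00000039114) on chromosome 13 at 36725361 to 36735131, also on the minus strand.

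Since the 5 genes chose the cells together, the sequence before the start of 3 of them is shown, 250 bases on the gene's own strand from RefSeq on GRCm38.p6, written 5′ to 3′. Capitals mark GGAAAA, a 6-base form of the NFAT binding motif, searched on both strands. NFAT is switched on by calcium after T cell receptor engagement. Promoters were matched for 4 of the 5 genes.
Tnfsf11, chr14:78308044-78308293, minus strand: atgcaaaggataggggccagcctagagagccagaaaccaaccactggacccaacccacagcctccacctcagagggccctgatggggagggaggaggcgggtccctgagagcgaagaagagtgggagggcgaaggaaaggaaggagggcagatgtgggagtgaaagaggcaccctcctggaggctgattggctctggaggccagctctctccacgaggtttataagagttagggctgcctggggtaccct
Xcl1, chr1:164935523-164935772, minus strand: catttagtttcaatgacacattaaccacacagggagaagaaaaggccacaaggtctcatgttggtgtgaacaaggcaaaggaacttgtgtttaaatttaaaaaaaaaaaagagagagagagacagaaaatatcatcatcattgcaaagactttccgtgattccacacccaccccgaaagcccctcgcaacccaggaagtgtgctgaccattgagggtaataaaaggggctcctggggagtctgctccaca
Ccl1, chr11:82179813-82180062, minus strand: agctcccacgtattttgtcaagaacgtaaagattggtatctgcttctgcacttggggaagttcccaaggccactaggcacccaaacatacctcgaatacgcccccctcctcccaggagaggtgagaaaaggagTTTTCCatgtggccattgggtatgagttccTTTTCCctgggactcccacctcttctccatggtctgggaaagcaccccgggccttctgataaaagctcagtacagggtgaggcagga
The Ccl1 window lies next to the protein-coding transcripts and inside the long noncoding one. It held 2 matches, with first bases at -117 and -87 from the start, both read on the opposite strand. The windows of Tnfsf11, Xcl1 and Tnfsf8 held 0 matches to GGAAAA. The shorter letters GGAAA, on either strand, were not searched for and do occur in these windows. Over all 32851 promoter windows of the same length, 20.4% held GGAAAA. The AP-1 motif TGANTCA was in 0 of the 4 windows and in 6.75% of all. A match describes letters only.

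Beyond the 5 genes, Ccr7, Tnfsf4, Tnfrsf4 and Lad1 were at least 1.5-fold higher in the selected cells of both libraries, and Gzma, Ccl5, S1pr1 and Rtp4 at least 1.5-fold lower, also at matched depth. Of 7372 measured genes (at least 10 CPM in selected or other cells of both libraries and at least 20 UMIs), 103 were at least 2-fold higher in both libraries (1.4%) and 145 at least 2-fold lower (1.97%). The 103 include the 5 rule genes. At matched depth 45 of 7319 were higher (0.615%) and 46 lower (0.629%), of which 36 and 37 were among those genes. Membership was cut from counts of the same cells, so these numbers describe the cells and test nothing. The median log2 ratio over all measured genes was -0.03. List counts below are of genes at least 1.5-fold higher or lower in both libraries. Over all measured genes 3.91% were higher and 5.91% lower by this measure, and 2.83% and 2.49% at matched depth, shares to read every list count against.

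**Figure D1:**
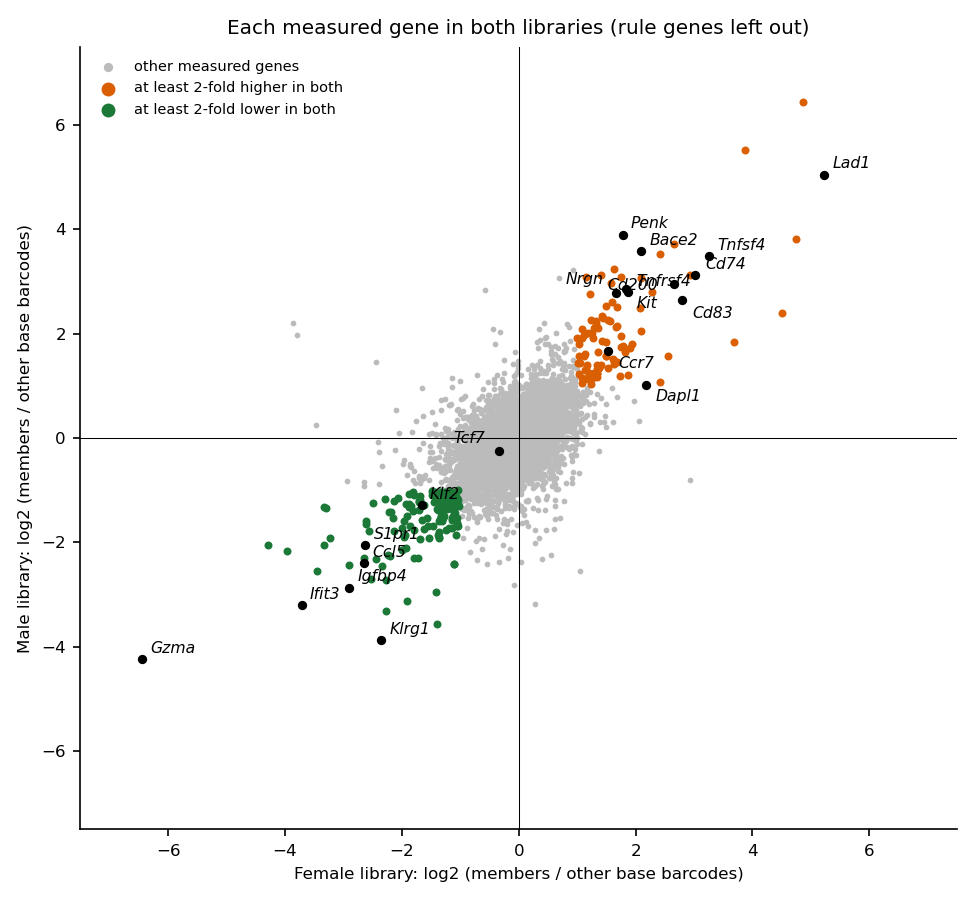
Log2 ratio of CPM in selected cells (members) over other base barcodes for each measured gene, female library on the x axis and male library on the y axis, rule genes left out, with genes past 2-fold in both libraries coloured. Lad1 lies at the upper right (5.22 and 5.05) and Gzma at the lower left (-6.45 and -4.24), while Tcf7 lies near the centre.

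The named markers beyond the rule were Ccr7 and Dapl1, and both were higher. Ccr7, the receptor that guides T cells and dendritic cells to lymph nodes, stood at 1486 CPM in female and 1808 CPM in male selected cells, against 515 and 569 CPM, log2 ratios of 1.53 (1.43 to 1.62) and 1.67 (1.58 to 1.76). At matched depth the ratios were 0.69 and 1.21. Dapl1, related to the death-associated protein gene Dap, stood at 143 and 155 CPM against 31.9 and 76.2, ratios of 2.17 (1.82 to 2.52) and 1.02 (0.72 to 1.32), or 1.81 and 0.62 at matched depth. After thinning, 66.2% of female and 78.9% of male selected cells held a Ccr7 UMI, against 35.2% and 44.2% of the other base cells.

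Other genes of the progenitor and naive list did not follow Ccr7. Of its 20 genes, all measured, 2 were at least 1.5-fold higher in both libraries (Ccr7 and Dapl1; 3.91% of all genes) and 8 at least 1.5-fold lower (5.91% of all genes), with a median log2 ratio of -0.34. Tcf7, the transcription factor that defines progenitor CD8 T cells, stood at 146 and 254 CPM against 183 and 302, ratios of -0.33 (-0.61 to -0.07) and -0.25 (-0.46 to -0.04). Its relative Lef1 stood at 47.8 and 68.8 CPM against 103 and 176, ratios of -1.11 and -1.36. The factor Id3 was at -0.81 and -1.16, but at -0.10 and -0.70 at matched depth. Slamf6, a surface marker of progenitors, was at 0.17 (-0.30 to 0.61) and 0.86 (0.47 to 1.23), or 0.10 and 0.43 at matched depth. At matched depth Tcf7 was at -0.15 and -0.09 and Lef1 at -0.84 and -1.0, and the list median was -0.06, with 2 higher and 6 lower.

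The genes for leaving tissue were among the lowest of that list. Klf2, a factor that maintains trafficking receptors, stood at 183 and 490 CPM against 578 and 1191 CPM, ratios of -1.66 (-1.90 to -1.44) and -1.28 (-1.43 to -1.14). Its target S1pr1, the receptor for exit into lymph, stood at 21.7 and 37.3 CPM against 134 and 154, ratios of -2.62 (-3.34 to -1.98) and -2.05 (-2.61 to -1.54). At matched depth Klf2 was at -0.78 and -0.50 and S1pr1 at -1.77 and -1.08. The name progenitor-like thus rested here on Ccr7 and Dapl1, since Lef1, Klf2 and S1pr1 were lower than in the other base cells and Tcf7 was within 1.5-fold of them.

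The chemokine receptor and trafficking list had 2 of 20 measured genes higher, Ccr7 and Ccr8, and 11 lower, with a median of -0.89 (4 lower and a median of -0.50 at matched depth). Ccr8, the receptor of the Ccl1 chemokine, stood at 125 and 122 CPM against 48.6 and 28.4, ratios of 1.36 (1.02 to 1.70) and 2.11 (1.72 to 2.49), or 0.74 and 1.85 at matched depth. Ccr2 and Cxcr3, receptors that guide effector cells into inflamed tissue, were at -2.19 and -1.0 for female cells and -1.43 and -0.98 for male cells. At matched depth Ccr2 was at -1.44 and -1.12, and Cxcr3 at -0.39 and -0.78, no longer past 1.5-fold in the female library. Cd69, which holds cells in tissue by opposing S1pr1, was at -0.94 and -0.98, but at -0.45 and -0.56 at matched depth, within 1.5-fold in both.

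Ligands of the TNF family other than the 2 in the rule were higher for 5 of 10 measured genes and lower for Fasl, with a median of 0.61 (0.65 at matched depth, with 5 higher and 0 lower). Tnfsf4, the OX40 ligand, stood at 40.2 and 37.3 CPM against 4.23 and 3.32, ratios of 3.25 (2.41 to 4.13) and 3.49 (2.56 to 4.48), or 2.40 and 2.52 at matched depth. Cd70, the ligand of CD27, had 12 female and 33 male UMIs in 5 and 10 selected cells against 2 UMIs in the other base cells of each library, a gene named after its values were seen. Lta, encoding lymphotoxin alpha, was at 1.35 and 1.32, Tnfsf13b (BAFF) at 2.08 and 2.50 and Tnfsf14 (LIGHT) at 1.22 and 0.88, all 3 on at most 19 UMIs in either set of selected cells. Ltb was at -0.01 and 0.36, and Tnf at -0.31 and -1.40. At matched depth Ltb was at -0.03 and 0.23, and Tnf at 0.77 and -0.83.

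Of 7 TNF receptors measured, 1 was lower, Tnfrsf1a, and 1 higher, Tnfrsf4, encoding the costimulatory receptor OX40. Tnfrsf4 stood at 448 and 496 CPM against 122 and 71.1, ratios of 1.87 (1.69 to 2.06) and 2.80 (2.59 to 3.01), or 0.91 and 1.94 at matched depth. Tnfrsf9 (4-1BB) was at 0.53 and 0.81 and Tnfrsf18 (GITR) at 0.47 and 0.72, below 1.5-fold in 1 library each. At matched depth Tnfrsf9 was at 0.14 and 0.51 and Tnfrsf18 at 0.19 and 0.45, below 1.5-fold in both. The median of the 7 was 0.37 (0.32 at matched depth, with 1 higher and 1 lower).

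Adhesion and costimulatory genes were higher for 6 of 20 and lower for 0, with a median of 0.25 (4 higher and a median of 0.36 at matched depth). Lad1, encoding the anchoring-filament protein ladinin, stood at 25 and 95.6 CPM against 0.668 and 2.88, ratios of 5.22 (3.50 to 7.60) and 5.05 (4.20 to 6.02), from 12 female and 17 male cells with a UMI. Cd200, ligand of an inhibitory receptor of myeloid cells, stood at 43.5 and 43.1 CPM against 6.90 and 5.54, ratios of 2.65 and 2.96. Cd83, a surface protein of activated lymphocytes and dendritic cells, was at 2.80 and 2.65, and Cd160, an HVEM receptor, at 1.0 and 1.92. The 4 genes were at 5.09, 2.0, 2.71 and 0.44 in the female and 3.21, 2.12, 2.23 and 1.35 in the male library at matched depth.

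The 15 highest genes by the naming rule also held Cd74, of the dendritic cell list, and several genes on no list. Cd74, the invariant chain that escorts MHC class II, stood at 101 and 287 CPM against 12.5 and 32.8, ratios of 3.02 (2.52 to 3.52) and 3.13 (2.83 to 3.43), with a UMI in 25 female and 38 male selected cells, or 2.53 and 2.05 at matched depth. Class II itself was near 0: H2-Aa had 1 UMI in each library, H2-Ab1 3 and 6, and H2-Eb1 1 and 0. Bace2, a membrane protease, was at 2.09 and 3.59, and Kit, the stem cell factor receptor, at 1.84 and 2.85. Nrgn, the calmodulin-binding neurogranin, named for its likeness in rank to the number of rule genes, was at 1.66 and 2.79. Their matched-depth ratios were 0.64 and 2.30 for Bace2, 0.95 and 1.3 for Kit and 0.84 and 2.11 for Nrgn. Wee1, a kinase that restrains entry into mitosis (2.29 and 2.81), Sema4c, a semaphorin (2.09 and 3.07), Dusp14, a phosphatase (1.75 and 3.09), and Tubb6, a beta tubulin (1.94 and 1.81), were also among the 15 highest. Penk, the enkephalin precursor, was at 1.78 and 3.90, but 84.4% of its female UMIs came from 1 cell. Without the cells richest in Penk, Xcl1 and Ccl1 the female Penk ratio was -0.82 and the male 3.42.

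Genes that follow T cell receptor signalling were found on both sides. Of 18 measured TCR-induced factors, Rel and Irf8 were higher and Egr1 lower, the latter near the share over all genes, with a median of 0.10 (0.44 at matched depth, with 1 higher and 0 lower). Rel, an NF-kappa B subunit, was at 0.81 and 0.91 (0.74 and 1.30 at matched depth), and Egr1, an immediate early factor, stood at 56.5 and 61.8 CPM against 113 and 116, ratios of -1.0 and -0.90, or -0.09 and -0.26 at matched depth. Of 21 feedback inhibitors 5 were higher, among them the MAP kinase phosphatase Dusp4 (1.08 and 2.09) and the Sprouty gene Spry1 (0.63 and 2.01), and 4 were lower, among them Rgs1 (-1.26 and -1.12) and Socs3 (-0.77 and -1.5). At matched depth 3 of these inhibitors were higher and 1 lower. Dusp4 was then at 0.50 and 1.72, Spry1 at 0.59 and 1.80, Rgs1 at -0.79 and -0.62 and Socs3 at -0.09 and -1.09. The anergy list had 2 of 13 higher, Ndrg1 and Lag3, and 1 lower, with a median of 0.11, but 0 of 12 in either direction and a median of 0.02 at matched depth. The part of the name that says activated thus had Rel, Tnfrsf4 and Cd83 above the other base cells, also at matched depth, while Egr1 and Cd69 were at least 1.5-fold below them only without that weighting.

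The exhaustion and residency list had a median of -0.02, with 2 of 18 measured genes higher and 4 lower, and 0 in either direction at matched depth. Lag3, an inhibitory receptor, stood at 580 and 617 CPM against 338 and 193, ratios of 0.78 (0.63 to 0.92) and 1.68 (1.52 to 1.84), or 0.27 and 1.02 at matched depth. Pdcd1, encoding PD-1, was at 0.58 and 0.88, and Tox, the factor of exhausted cells, at 0.52 and 0.78, or 0.10 and 0.56 and 0.38 and 0.69 at matched depth. Itgae, the CD103 integrin of resident cells, had 0 UMIs in female and 15 in male selected cells, against 112 and 139 UMIs in the other base cells. At matched depth its ratios were -2.62, with 0 set to 3 counts, and 0.87.

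Cytotoxic genes were lower for 7 of 20 and higher for 0, with a median of -0.24 (5 lower and a median of -0.13 at matched depth). Gzma, encoding granzyme A, stood at 9.78 and 33.8 CPM against 858 and 640, ratios of -6.45 (-7.58 to -5.53) and -4.24 (-4.82 to -3.72), with UMIs in 5 selected cells of each library. Gzmk was at -2.65 and -2.31 and Gzmb at -1.37 and -1.92. Ccl5, a chemokine of effector and memory CD8 T cells, stood at 1350 and 1196 CPM against 8463 and 6318, ratios of -2.65 (-2.73 to -2.57) and -2.40 (-2.49 to -2.31). At matched depth Gzma was at -5.70 and -4.09, Gzmk at -2.54 and -1.97, Gzmb at -1.12 and -1.86 and Ccl5 at -1.40 and -1.33. Klrg1, an inhibitory receptor of terminal effector cells, had 0 and 1 UMIs against 75 and 77.

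Type I interferon-induced genes had the lowest median of the lists with at least 4 measured genes, -1.16, with 6 of 9 lower and 0 higher. At matched depth 4 of 8 were lower, with a median of -0.74. Isg15, a ubiquitin-like antiviral protein, stood at 46.7 and 28.0 CPM against 95.6 and 90.4, ratios of -1.03 and -1.69, or -0.68 and -1.78 at matched depth. Rtp4 was at -2.91 and -2.44 (-2.30 and -2.01 at matched depth), and Ifit3, which rested on 2 and 3 UMIs in selected cells, at -3.71 and -3.20. Ifit3 was 0.02 on average in thinned cells, where selected cells hold few UMIs.

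Glycolysis genes had a median of 0.44 with 4 of 15 higher, Hk2, Tpi1, Pgk1 and Pgam1, but 0 were higher at matched depth, where the median was 0.00. Dissociation stress genes, which tissue digestion induces, had a median of -0.31 with 4 of 21 lower (Fos, Ier2, Btg1 and Zfp36) and 0 higher, and of 0.08 with 1 lower at matched depth. Their summed level was 11854 CPM in female and 11958 CPM in male selected cells, against 12933 and 14039 CPM. Cytokine receptor genes had Il2ra, the high-affinity interleukin 2 receptor chain, as the 1 higher of 17 (1.04 and 0.82) and 5 lower, with a median of -0.42 (-0.12 at matched depth, with 2 lower). MYC and biosynthesis genes (19 measured, median -0.01), cell cycle genes (10, median 0.02) and T cell identity genes (10, median 0.05) had 0 genes past 1.5-fold in the same direction in both libraries. Of the chemokine list, which held 12 genes, 3 were measured and all 3, Ccl3, Ccl4 and Ccl5, were lower (median -1.77). Fewer than 3 were measured at matched depth, so no list median is given there. Ccl5 was then at -1.40 and -1.33, but Ccl4 at -0.44 and -0.04, within 1.5-fold in both libraries. Of the cytokine list, which held 18, 4 were measured and 0 were past 1.5-fold in the same direction in both libraries.

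**Figure D2:**
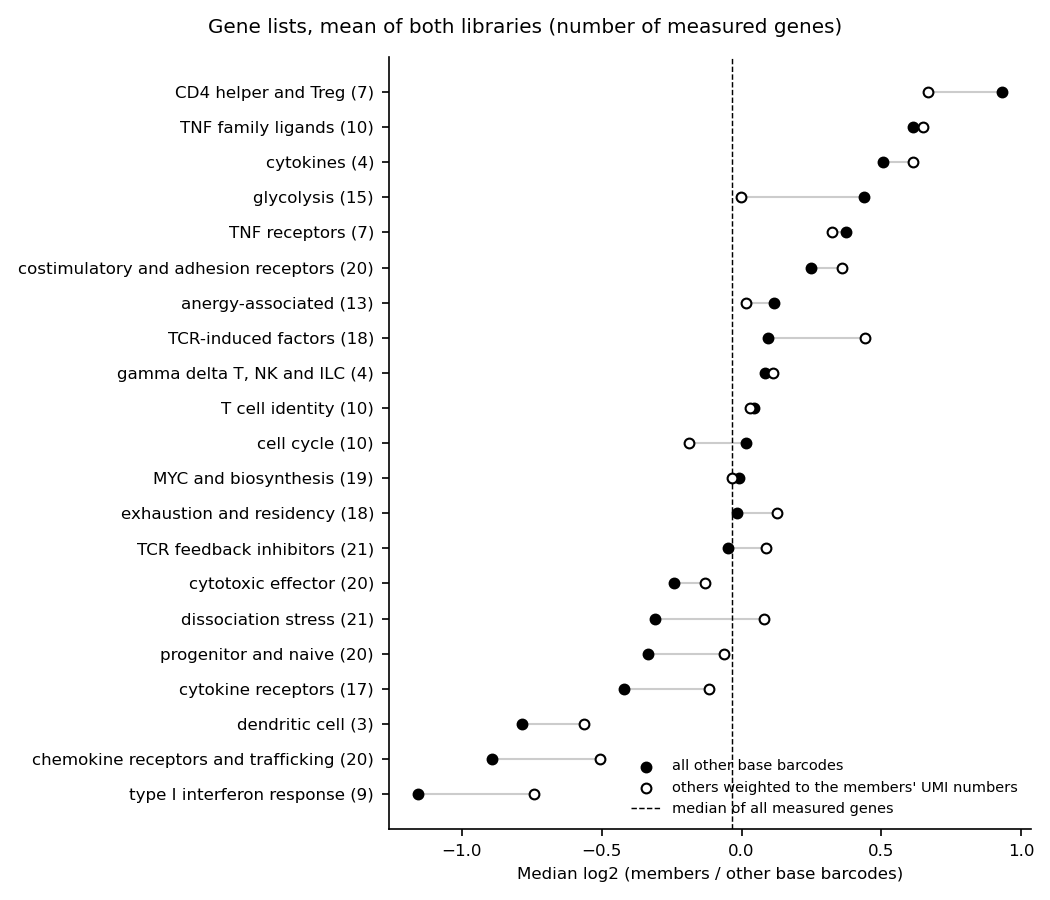
Median log2 ratio of selected over other base cells for each list with at least 3 genes measured in both comparisons (number in brackets), filled points for all other base cells and open points for other base cells weighted to the UMI deciles of the selected cells. Of the lists drawn, type I interferon is lowest under both (-1.16 and -0.74), while glycolysis moves from 0.44 to 0.00.

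Markers of other cell types were checked as whole lists. The CD4 helper and regulatory list had 3 of 7 measured genes higher, Ikzf2, Il2ra and Tnfrsf4, and summed to 1324 and 1294 CPM in selected against 852 and 569 CPM in other base cells, a rise that moves with the results above and whose part in them was not tested. Cd40lg, a gene of helper cells, had 5 and 13 UMIs in selected cells (5.43 and 15.2 CPM), against 163 and 105 CPM in Cd4 barcodes. At matched depth the other base cells had 1.45 and 5.10 CPM, so Cd40lg was higher in selected cells (ratios of 1.90 and 1.57), on few UMIs. Of 14 genes of gamma delta T, natural killer and innate lymphoid cells, 4 were measured and Cd160 was higher. Trdc and Ncr1 were at 0 in selected cells. The dendritic cell list summed to 142 and 332 CPM against 75.5 and 102 CPM, most of it Cd74, with Xcr1, Clec9a, Cd209a and Siglech at 0. The macrophage and neutrophil list summed to 35.8 and 32.6 CPM against 26.1 and 24.2 CPM, with Adgre1, C1qb, S100a8 and S100a9 at 0. The B cell list summed to 6.52 and 8.16 CPM, and the tumour and stroma list to 32.6 and 39.6 CPM.

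The number of rule genes carried ordered the cells. Cells with 1 rule gene lay just outside the threshold and cells with 2 just inside, and their values are given with no test. Ccr7 stood at 346, 953, 994 and 2297 CPM in female base cells with 0, 1, 2 and 3 or more rule genes, and at 496, 748, 1352 and 2309 CPM in male ones. Ccl5 stood at 10088, 4268, 2092 and 129 CPM for female cells and 7529, 3349, 1695 and 648 CPM for male cells. Between 1 and 2 rule genes female Ccr7 thus barely differed, while Ccl5 was lower at each step in both libraries. As a fold, Klf2 differed most at the last step, with 561, 622, 271 and 37.4 CPM in the female and 1210, 1146, 884 and 56.3 CPM in the male library. Tcf7 showed no such order, with 176, 203, 117 and 193 CPM for female cells and 286, 341, 234 and 276 CPM for male cells. Median UMI numbers rose along the same steps, 5918, 8461, 11055 and 15024 in the female and 5889.5, 7413, 10391.5 and 11830 in the male library, and depth and step cannot be told apart here.

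**Figure D3:**
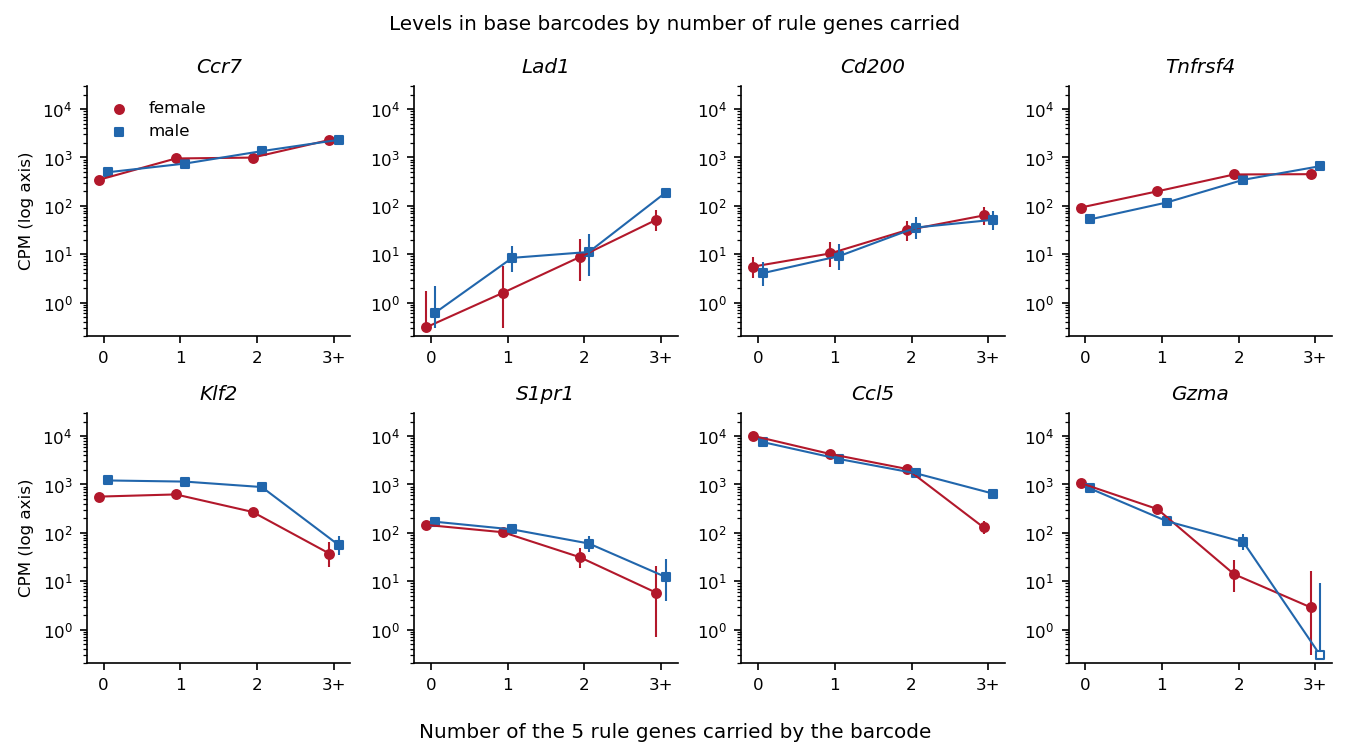
CPM (log axis) of 8 genes in base barcodes with 0, 1, 2 and 3 or more of the 5 rule genes, female (circles) and male (squares), bars giving exact 95% counting intervals and an open symbol a count of 0. Ccr7, Lad1, Cd200 and Tnfrsf4 are higher and Klf2, S1pr1, Ccl5 and Gzma lower in cells with 3 or more rule genes than in cells with 0.

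Selected cells with and without Tnfsf11 differed among themselves. The 58 female and 46 male cells with a Tnfsf11 UMI had Klf2 at 78.0 and 124 CPM. The 15 and 25 without one had 666 and 1287 CPM. The other base cells had 578 and 1191 CPM, or 314 and 692 CPM weighted to the UMI deciles of all selected cells. S1pr1 stood at 14.5 and 15.3 CPM with Tnfsf11 and at 55.0 and 85.3 CPM without. Tnfrsf4 stood at 517 and 650 CPM with Tnfsf11 and at 128 and 159 CPM without. Dapl1 stood at 169 and 184 CPM against 24.4 and 92.7, and Kit at 29.1 and 59.5 against 0 and 7.41. Against the unweighted other base cells, S1pr1 was thus lower without Tnfsf11 too (134 and 154 CPM in the other base cells). Male Tnfrsf4 was higher (71.1 CPM in the other base cells), both less so than with Tnfsf11. The weighted other base cells had S1pr1 at 74.2 and 78.7 CPM and Tnfrsf4 at 238 and 129 CPM. Beside these, S1pr1 without Tnfsf11 was lower in the female library only, and Tnfrsf4 higher in the male only. The cells with Tnfsf11 were deeper: their median UMI numbers were 12548.5 and 11952 against 10789 and 9041 in those without.

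The same genes were followed in 2 groups outside the base. Tnfsf11 stood at 33.4 and 42.1 CPM in Cd8 cells with Havcr2 (749 female and 569 male) and at 268 and 389 CPM in Cd4 cells without Foxp3 (227 and 220), beside the 260 and 304 CPM that the rule set in the selected cells. Tnfsf8 was highest in Cd4 cells (345 and 314 CPM), then in selected cells (65.2 and 108), and lowest in Cd8 cells with Havcr2 (1.89 and 5.82). Xcl1 was highest in selected cells (263 and 508 CPM), then in Cd8 cells with Havcr2 (113 and 94.4), and lowest in Cd4 cells (15.5 and 2.32). Ccl1 did not separate selected female cells (30.4 CPM) from Cd8 cells with Havcr2 (30.5), and its male levels were 66.5 and 50.7 CPM. Without the cells richest in Penk, Xcl1 and Ccl1 the selected cells had 21.8 and 19.9 CPM of Ccl1. No such cells were left out of the Cd8 cells with Havcr2. Ccr7 stood at 153 and 213 CPM in Cd8 cells with Havcr2 and at 552 and 1053 CPM in Cd4 cells, below the selected cells in both. Gzmb, encoding granzyme B, stood at 278 and 148 CPM in selected cells against 2458 and 2643 CPM in Cd8 cells with Havcr2.

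**Figure D4:**
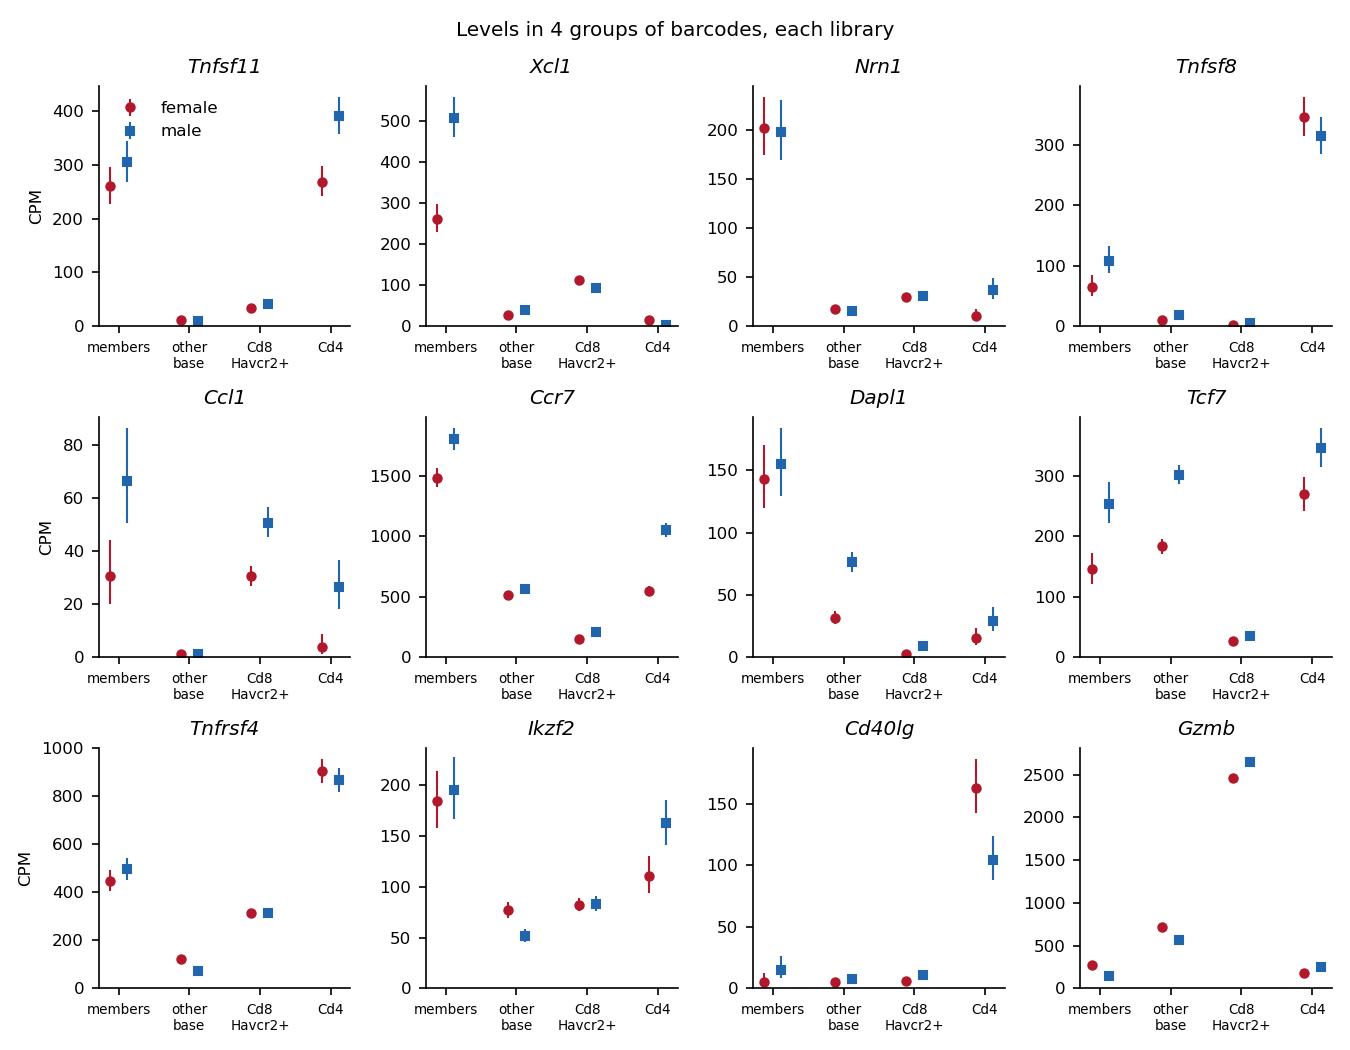
CPM of 12 genes in selected cells (members), other base cells, Cd8 cells with Havcr2 and Cd4 cells, female (circles) and male (squares), with exact 95% Poisson intervals. Ccr7 and Dapl1 are highest in the selected cells, Cd40lg and Tnfsf8 in Cd4 cells and Gzmb in Cd8 cells with Havcr2.

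Cells outside the base did not enter the selection, so the same split was made there. At least 2 rule genes were carried by 78 female and 68 male Cd8 cells with Havcr2 and by 41 and 60 Cd4 cells. Of the 98 genes other than rule genes that were at least 2-fold higher in selected cells, 54 were measured in Cd8 cells with Havcr2. Of these 10 were at least 1.5-fold higher in both libraries in carriers of 2 or more rule genes (18.5%, beside 1.15% of all genes) and 0 lower. In Cd4 cells 33 of 53 were higher (62.3%, beside 5.11%). The 1 lower was Dapl1 (-1.45 and -1.82), on 2 female and 5 male UMIs in carriers. Of the 145 lower genes 23 of 113 were lower in Cd8 cells with Havcr2 (20.4%, beside 1.39%) and 2 higher, and 56 of 125 in Cd4 cells (44.8%, beside 6.99%) and 1 higher. Carriers were again deeper, with medians of 14028.5 and 13222.5 against 10384 and 9648 UMIs in Cd8 cells with Havcr2 and of 6353 and 6606.5 against 4943 and 4890 in Cd4 cells, and the part of depth was not tested. Cd200 was at 1.5 and 0.86 in Cd8 cells with Havcr2 and at 2.25 and 2.74 in Cd4 cells, and S1pr1 at -1.93 and -1.07 and at -0.41 and -0.92.

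Over 1332 base cells of both libraries thinned to 3000 UMIs, the genes most alike in rank to the number of rule genes carried were Tnfrsf4 (Spearman rho 0.28), Cd74 (0.24), Bace2 (0.23), Ccr7 (0.21) and Ccr8 (0.20), followed by Nrgn, Lag3, Ikzf2, Kit and Lad1 (0.19 to 0.17). These cells share 2 libraries, counts are sparse and the values are weak, so they are a description only. Ikzf2, encoding the factor Helios, stood at 185 and 196 CPM in selected cells against 76.8 and 51.9 CPM, ratios of 1.27 (0.99 to 1.53) and 1.92 (1.62 to 2.21), or 0.83 and 1.45 at matched depth.

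T cell receptor segments were varied among the selected cells. A beta-chain segment could be assigned in 66 of 73 female and 70 of 71 male cells, which used 17 and 19 different Trbv segments. The most frequent was Trbv12-2 in the female (11 cells, 16.7%, 8.62% to 27.9%) and Trbv12-1 in the male library (11 cells, 15.7%, 8.11% to 26.4%). In the other base cells the leaders took 16.4% (Trbv12-1, female) and 15% (Trbv12-2, male), within those intervals. Both chains could be assigned in 46 and 44 selected cells, with 37 and 40 different pairs, and the most frequent pair was held by 5 female cells and by 2 male cells. Segments are not clonotypes, and cells with the same pair need not be 1 clone.

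Female and male selected cells were compared as 2 libraries, which is not a test of sex. Of 7049 genes measured for this, 61 were at least 1.5-fold above the male level in female selected cells, with the near interval bound past a 25% difference (0.865%), and 56 were below it (0.794%). Of these, 17 (0.241% of the genes measured) and 11 (0.156%) were also at least 1.5-fold different in the same direction in the other base cells. Of the 5 rule genes, Nrn1 (log2 female over male 0.03, -0.28 to 0.34) and Tnfsf11 (-0.23, -0.49 to 0.03) had intervals that held 0. Xcl1 was at -0.95 (-1.18 to -0.72) and Ccl1 at -1.13 (-1.83 to -0.45), but without the cells richest in Penk, Xcl1 and Ccl1 they were at -0.24 (-0.53 to 0.05) and 0.14 (-0.90 to 1.19). Tnfsf8 was at -0.73 (-1.23 to -0.25), with 33.3% of the male UMIs in 1 cell. In the other base cells it was at -0.86 (-1.41 to -0.33).

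Most of the largest differences between the libraries rested on few cells. Slc15a2, a peptide transporter, was spread over the most cells among the 8 highest genes: it had 108 UMIs in 37 female and 16 in 9 male selected cells, a ratio of 2.65 (1.89 to 3.51), and was also higher in the other female base cells (1.3). Sos1, an exchange factor for Ras, had 22 and 5 UMIs (2.04, 0.60 to 3.79) and Nol10 25 and 6 (1.96, 0.64 to 3.53), with ratios of -0.08 and -0.09 in the other base cells. Serpinb9b, a protease inhibitor gene, had 47 and 5 UMIs (3.13), with 53.2% of the female ones in 1 cell. Plxdc1 (4.22), Pclaf (2.71) and Dpagt1 (1.97) had 20, 21 and 21 female UMIs against 1, 3 and 5 male ones.

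Lower in the female selected cells were Penk, given above (-3.41, -3.89 to -2.97), and Csf2, encoding the growth factor GM-CSF, with 4 UMIs in 2 female and 63 in 8 male cells (-4.08, -6.00 to -2.65). A single cell held 78% of the male UMIs of Def8 (-2.58) and 62.1% of those of Atf3, a stress factor (-1.96). Bmyc, a Myc relative, was seen in 14 female and 23 male cells (-2.01, -2.88 to -1.23) and was also lower in the other female base cells (-1.17). Plaur, the urokinase receptor, was at -2.49 and Phkb at -1.95, on 4 and 5 female UMIs. Without the cells richest in Penk, Xcl1 and Ccl1 the Penk ratio was -5.54 (-6.86 to -4.48).

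**Figure D5:**
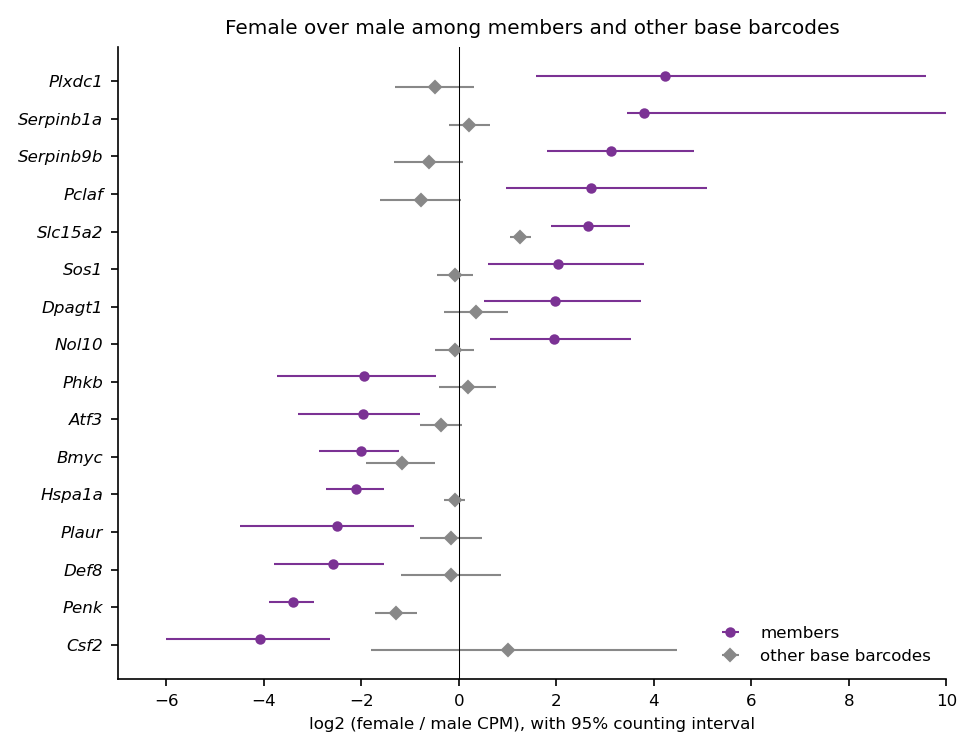
Log2 of female over male CPM for the 8 highest and 8 lowest called genes of the naming rule, in selected cells (members, circles) and in the other base barcodes (diamonds), with exact 95% counting intervals cut at the axis limits. Slc15a2, Penk and Bmyc differ in the same direction in both, while Sos1 and Hspa1a lie near 0 in the other base barcodes.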

How the data were processed

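The deposited files are 1 gene-by-barcode matrix of raw UMI counts per library. Cell Ranger 7.0.1 wrote them, per the file headers, and the submitters' processing notes add GRCm38 and Seurat 5 without a role. Cell-calling settings are not given in the sources used here. Of 32285 genes, 99.6% matched GENCODE M21 by identifier.

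Kept barcodes had 500 or more genes and no more than 10% of UMIs from mitochondrial genes. No doublet caller was run, and the conditions on Cd4, Foxp3, Lyz2 and total UMIs stand in its place. The selected cells and all gene lists were chosen with earlier results of these data known. UMIs were summed per library and group, divided by the group's total and compared as log2 ratios with exact Clopper-Pearson intervals at 95%. Cells of 1 library are not replicates, so no p-value was made. Measured genes reached 10 CPM in selected or other base cells of both libraries, with 20 UMIs in all. Between the libraries, 10 CPM in selected cells of either library and 20 UMIs in selected cells were asked. Tumour-like cells had at least 10 UMIs of Krt8 and Krt18 and 0 of Cd3e. Cd4 cells had at least 1 UMI of Cd4 and 0 of Cd8a, Cd8b1, Foxp3, Lyz2 and Mki67.

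Named genes were the 5 rule genes and 5 given markers, of each list up to 4 with 50 UMIs in selected cells, taken by size of ratio, the 15 highest and 15 lowest ratios (20 CPM), the 8 highest and 8 lowest between libraries, and the 10 most alike in rank. Genes outside this rule, such as Cd70, Tcf7, Lef1, Slamf6, Cd69, Ccr2, Klrg1, Itgae, Lta, Tnfsf13b, Tnfsf14, Tox and the class II genes, were named after their values were seen. Thinning was a single seeded draw to 3000 UMIs, with shallower cells left out. Python 3.11.15, numpy 2.4.6, scipy 1.17.1, pandas 2.3.3 and matplotlib 3.10.9 were used, with scaling factors from edgeR 4.0.16 and DESeq2 1.42.0 in R 4.3.3 as alternatives. The ratio of selected over other cells, its interval and the 2-fold call were checked on simulated Poisson counts of group sums. Selection of cells, thinning, depth weighting, the comparison between libraries and the spread between cells were not simulated.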

Additional observations from a re-analysis of the deposited data

Results flagged for a closer look

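Serpinb1a and Hspa1a pointed in opposite directions in the 2 libraries when selected cells were set against the other base cells, and the difference between the libraries was not tested. Serpinb1a, encoding an inhibitor of neutrophil-type proteases, had a log2 ratio of 1.05 in the female library, with 57.8% of its 45 UMIs in 1 selected cell. In the male library it had 0 UMIs in 71 selected cells against 92 in the other base cells, which gives -2.54 with 0 set to 3 counts. Hspa1a, encoding an inducible heat shock protein, was at -1.27 in the female library (31 UMIs in 5 selected cells, 64.5% of them in 1) and at 0.76 in the male (125 UMIs in 6 cells, 41.6% in 1). With the other base cells weighted to the depth of the selected cells, Hspa1a was at -0.04 and 1.20, so that its female fall was no longer seen, and Serpinb1a at 0.43 and -2.66.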

How the results depend on the processing

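No paired analysis was possible because each sex has 1 library and the labels carry no replicate numbers. The female and male shares of selected cells were 4.26% and 4.89% after thinning, 3.21% and 4.08% with at least 3 rule genes, 6.01% and 5.67% without Xcl1 in the rule, and 7.30% and 7.33% with at most 15000 UMIs. Fewer cells can meet the rule in each of these by construction. The count of genes at least 2-fold higher (103) was 518 after thinning, where 28 and 33 cells remained and single UMIs decide ratios, 24 with at least 50 CPM, 201 with no CPM minimum, 45 at matched depth, and 160 and 255 in the female and male library alone. The count at least 2-fold lower (145) was 324 with at least 3 rule genes, 227 without Xcl1, 82 with at most 15000 UMIs, 44 with at least 50 CPM, 246 with no CPM minimum, 46 at matched depth, and 330 and 341 in each library alone. For female over male, the 61 higher and 56 lower genes were 12 and 15 after thinning, 35 and 34 with at least 50 CPM, and 936 and 682 with equal weight per cell, where no interval was asked. The higher count was 30 with at least 3 rule genes. Apart from these constructions the cause was not tested.

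The dendritic cell list median (-0.78, 3 genes) was 0.40 after thinning, 1.13 without Xcl1 and 0.43 with no CPM minimum. In thinned cells Cd68 was at -0.64, Ifit3 at 0.0196 and Igfbp4 at 0.0639. Of the values of named genes in selected over other base cells under all alternatives, 1098 stayed within the SD of the 2 libraries' ratios, 308 moved further and 3 past 1.5-fold changed sign. The 104 values from each library alone could not leave that range by construction. The 104 values with no CPM minimum and the 65 with at least 50 CPM could not change at all. At matched depth 60 moved and 44 stayed. In thinned cells 52 moved, 3 changed sign and 46 stayed. With the edgeR and the DESeq2 scaling factors 6 moved and 98 stayed in each. List medians moved by less than 1.5-fold in 295 cases and by more in 4, and 3 past 1.5-fold changed sign. Sign changes of medians within 1.5-fold were not counted as such. An example is dissociation stress, at -0.31 and at 0.08 at matched depth. Female over male, 115 values stayed within their counting interval, 10 did not and 0 changed sign. Among the 115, the 16 with no CPM minimum and the 7 with at least 50 CPM could not change. Leaving out the cells richest in Penk, Xcl1 and Ccl1 was chosen after the data were seen. Depth limits genes with few UMIs in 144 cells.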

Other observations

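Several of the lowest genes in the selected cells by the naming rule have not been described above. Igfbp4, encoding an insulin-like growth factor binding protein, had 0 UMIs in female and 7 in male selected cells, against 109 and 269 in the other base cells. Nrarp, a Notch target, stood at 9.78 and 12.8 CPM against 45.0 and 61.2, log2 ratios of -2.20 (-3.35 to -1.25) and -2.25 (-3.27 to -1.39). Cd7, an immunoglobulin-family receptor of T cells, stood at 40.2 and 59.5 CPM against 156 and 223, ratios of -1.96 and -1.91. Rasgrp2, an exchange factor that activates integrins through Rap1, was at -1.94 and -1.86, and Cdkn1a, encoding the cell cycle inhibitor p21, at -1.79 and -2.29. The interferon-induced genes Tgtp1 (-2.27 and -2.73) and Ifi213 (-2.0 and -2.16), which were on no list, were also lower. At matched depth the ratios of these genes were between -2.52 and -0.42, the latter for female Cdkn1a.

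The growth factor gene Areg differed between the libraries. Its ratio of selected over other base cells was -0.57 (-1.30 to 0.09) for female cells and 2.84 (2.0 to 3.71) for male cells, with 70% of the 30 male UMIs in 1 cell, or -0.68 and 2.01 at matched depth. H2-Oa, a class II-like chain, stood at 31.5 and 44.3 CPM in selected cells against 13.1 and 19.9, ratios of 1.26 (0.57 to 1.93) and 1.15 (0.56 to 1.71) or 0.89 and 1.13 at matched depth, while Ciita, the class II master regulator, had 0 UMIs in selected cells of both libraries.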
